A study of Mus musculus with 7 samples.

Results

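Interferon-stimulated genes were followed in sorted Paneth cells of calorie-restricted mice and of mice fed ad libitum. The set was a list of 42 gene symbols. Each gene was represented by its brightest transcript cluster (the probes summarised for a gene) among those annotated to a single symbol. This gave a value for 38 of the 42 genes, out of 19938 genes with such a cluster. The symbol Isg15 itself, the namesake of the set, shares its cluster with Gm9706, Gbp2 shares its cluster with Gbp2b, and Gbp6 lies on a cluster of several Gbp genes. These 3 genes and Ifi44, for which no cluster was named here, have no value, so the label could not be checked on its own marker.

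Paneth cells sit at the bottom of the crypts of the small intestine, where they release antimicrobial proteins and support the neighbouring stem cells. The calorie-restricted group (CR) had 4 arrays, from mice aged 4 months given 60% of the ad libitum calories for 4 to 7 weeks. The ad libitum group (AL) had 3 arrays, from mice of the same age that ate freely over that time. The labels name no strain, sex, genotype or number of mice per array. All samples were Paneth cells sorted by flow cytometry, and the labels call the arrays biological replicates without naming the mice, so the spread between arrays is the only error available. Values are log2 expression, and each difference is the CR mean minus the AL mean.

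Interferons are secreted proteins that warn cells of infection. Type I interferons (interferon alpha and beta) and type III interferons (interferon lambda) signal through a complex of STAT and IRF9 proteins that binds the interferon-stimulated response element in target promoters, and interferon gamma signals through a STAT dimer that binds the gamma-activated sequence. In the intestine, interferon lambda is known to act mainly on epithelial cells. The targets include sensors of foreign nucleic acid, proteins that block viral replication, and the machinery that loads peptides onto MHC class I.

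The promoters of the genes carry these elements unevenly. RefSeq promoter windows (build GRCm38.p6, 250 bases before to 50 after a gene's start) were found for 30 of the 42 genes. The response element was searched on both strands as GAAA, any 2 bases and GAAA again, and occurred in 15 of the 30 (50%), against 3.99% of all 27025 genes with a window. The letters TTCNNNGAA, which read the same on both strands and stand for the gamma-activated sequence, occurred in 7 of the 30 (23.3%), against 9.55% of all genes. The matches of the different motifs overlapped in 1 gene, Bst2. The stretches below are shown because their genes carry the patterns described later, and capitals mark the matches. They are Ifit1 (chr19:34640739-34640838, + strand) and Stat2 (chr10:128270248-128270347, + strand), both with the response element, B2m (chr2:122147507-122147606, + strand), also with the response element, and Irf1 (chr11:53769874-53769973, + strand) and Psmb8 (chr17:34198045-34198144, + strand), both with the gamma-activated sequence.
Ifit1: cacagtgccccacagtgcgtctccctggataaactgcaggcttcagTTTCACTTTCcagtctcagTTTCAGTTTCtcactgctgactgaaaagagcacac
Stat2: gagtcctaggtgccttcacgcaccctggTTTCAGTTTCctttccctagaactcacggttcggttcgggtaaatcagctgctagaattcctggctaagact
B2m: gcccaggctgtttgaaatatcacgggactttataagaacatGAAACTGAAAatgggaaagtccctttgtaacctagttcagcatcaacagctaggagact
Irf1: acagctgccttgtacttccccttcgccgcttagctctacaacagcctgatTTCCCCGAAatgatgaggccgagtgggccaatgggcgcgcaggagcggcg
Psmb8: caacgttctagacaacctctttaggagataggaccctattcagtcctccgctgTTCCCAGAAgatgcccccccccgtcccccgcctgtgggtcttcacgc

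Psmb9 and Tap1 start back to back on chromosome 17, with 225 bases between their starts in RefSeq (chr17:34187331-34187555, shown on the + strand in the direction of Tap1). In gene order they are followed by Psmb8 and Tap2. Neither motif was found in these letters, which says nothing about binding there.
Psmb9 and Tap1: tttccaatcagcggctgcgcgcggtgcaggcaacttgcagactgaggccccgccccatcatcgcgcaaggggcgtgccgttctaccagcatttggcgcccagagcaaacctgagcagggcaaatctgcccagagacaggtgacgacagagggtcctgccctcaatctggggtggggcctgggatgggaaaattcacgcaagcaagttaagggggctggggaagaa

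Of the 38 measured genes, 32 had a mean at or above the 40th percentile of all transcript clusters (6.79) and were tested. Across the 32, calorie restriction passed the test for 0 genes in the higher direction and 0 in the lower direction (limma, adjusted p between 0.224 and 0.998). Over all 13409 genes tested, 0.656% passed in the higher direction and 0.00746% in the lower direction, 0.664% together. At an unadjusted p below 0.05 there were 4 of the 32 (Lgals3bp and Irf7 with positive differences, Stat2 and Zbp1 with negative ones), or 12.5%, against 9.3% of all genes. In the higher direction these were 2 of the 32, against 6.89% of all genes, and in the lower direction 2, against 2.41%. The ordinary linear model, without moderation, also gave 0 calls and had 2 genes at an unadjusted p below 0.05.

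The differences were small and ran in either direction. They were negative for 18 genes and positive for 14, or 56.2% negative against 45.8% over all genes. After median centring of the arrays 13 were negative, or 40.6% against 23.2% over all genes. The median was -0.03, against 0.01 over all genes, and after median centring it was 0.06 against 0.10. The values ran from -0.34 for Zbp1 to 0.49 for Irf7. The 95% interval of the difference lay within a 2-fold change either way for 31 of the 32 genes and within a 1.5-fold change for 21. Usp18 was the exception at 2-fold, with an interval of -0.41 to 1.08. Over all genes 95.8% had an interval within 2-fold. With each array left out in turn, the differences of Zbp1, Stat2, Irf7 and Lgals3bp stayed within 1.5 times their value, and those of the other 28 genes did not.

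**Figure D1:**
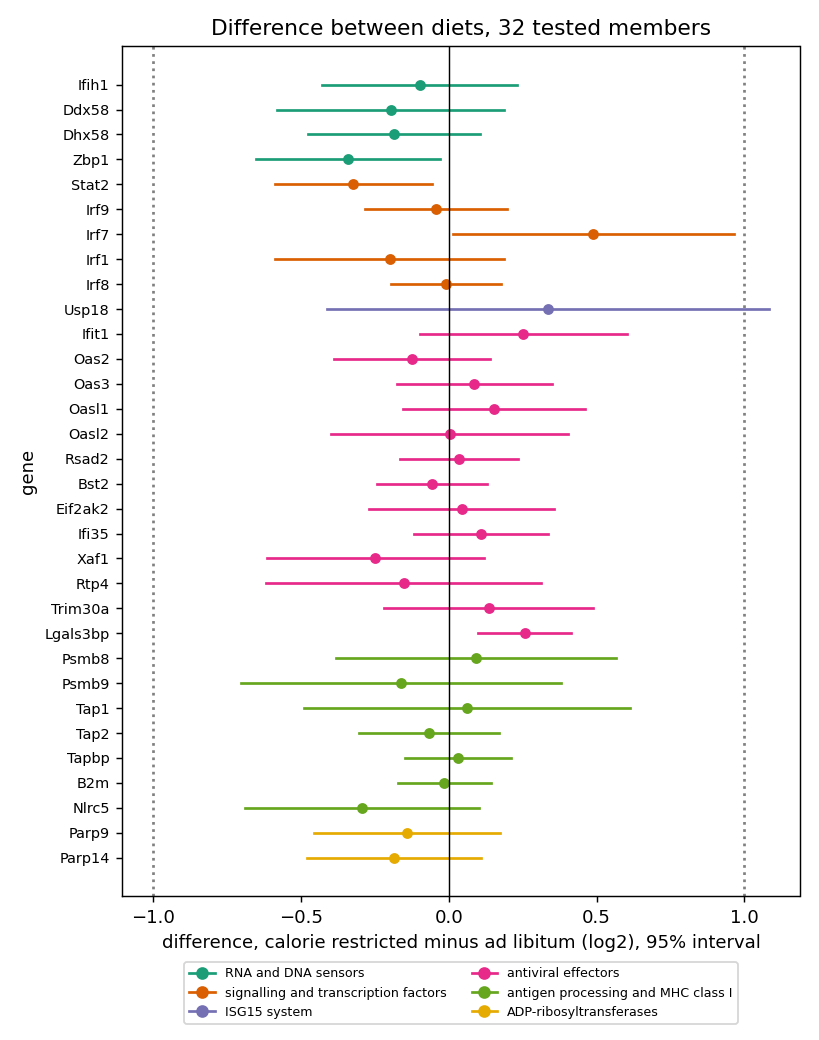
Difference between calorie-restricted and ad libitum arrays (log2, horizontal axis) for the 32 tested genes, with points for the estimate, lines for the 95% interval of limma and colours for the role of the gene. Dotted lines mark 2-fold changes, and every interval except that of Usp18 lies between them.

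The sensors of foreign nucleic acid all had negative differences, and 0 of 4 passed. The median difference was -0.19. Zbp1, a sensor of Z-form nucleic acid that can trigger cell death, was at 9.11, 9.17, 8.99 and 8.69 in CR replicates 1 to 4, against 9.42, 9.42 and 9.15 in AL replicates 1 to 3. Only CR replicate 2 lay above the lowest AL array, so the diets overlapped by 1 array, and the difference was -0.34 ± 0.14 (SE, limma adjusted p = 0.481). Ifih1, which encodes the RNA sensor MDA5, was at 10.12, 10.30, 9.92 and 9.81 in the CR arrays and at 10.36, 10.09 and 9.96 in the AL arrays. Its diets overlapped widely, and the difference was -0.10 ± 0.14 (0.01 without AL replicate 1). Dhx58, which encodes the regulatory helicase LGP2, was at 7.19, 7.26, 6.74 and 7.05 in the CR arrays, against 7.33, 7.21 and 7.20 in the AL arrays. CR replicate 3 was its lowest array, and the difference of -0.19 ± 0.13 was -0.08 without it. Ddx58, which encodes the RNA sensor RIG-I, had a difference of -0.20 ± 0.17 (-0.03 without AL replicate 1). Within the CR group, replicate 2 held the highest value of all 4 sensors, which held for 25.2% of all genes.

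Signal transducers and transcription factors had 0 of 5 members past the test, 4 of them with negative differences. Stat2, which carries the signal of type I and type III interferon receptors, was at 8.89, 9.03, 9.11 and 8.84 in the CR arrays, against 9.30, 9.46 and 9.11 in the AL arrays. Every CR array was at or below every AL array, with CR replicate 3 and AL replicate 3 at the same value. The difference was -0.32 ± 0.11 (limma, adjusted p = 0.406). Its DNA-binding partner Irf9 was at 8.960 ± 0.125 in CR and 9.004 ± 0.118 in AL arrays (SD, n = 4 and 3).

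Irf7, which drives transcription of the interferon genes, went the other way. It was at 9.45, 10.01, 9.54 and 9.20 in the CR arrays, against 9.41, 8.92 and 8.87 in the AL arrays. AL replicate 1 lay above CR replicate 4, and CR replicate 2 was the highest. The difference of 0.49 ± 0.21 was the largest positive one in the set, a 1.40-fold change, and did not pass (limma, adjusted p = 0.524). Irf1, an early target of interferon gamma, was at 10.40, 10.38, 10.26 and 10.25 in the CR arrays and at 10.11, 10.90 and 10.55 in the AL arrays. Its AL arrays enclosed all CR arrays, with an SD of 0.40 against 0.08 in CR. Its difference of -0.20 was -0.01 without AL replicate 2 and -0.41 without AL replicate 1. Irf8, a factor best known from myeloid cells, had a difference of -0.01, at 10.94, 10.90, 10.82 and 10.84 in the CR arrays and 10.96, 10.93 and 10.75 in the AL arrays.

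Of the ISG15 system, Usp18 was measured. Its product removes ISG15 from proteins and damps the type I interferon receptor. It was at 9.66, 9.69, 9.14 and 8.56 in the CR arrays, against 9.52, 8.56 and 8.69 in the AL arrays. Each diet held arrays near either end of the range. It had the largest within-diet SD of the 32 genes, 0.53, and a difference of 0.34 ± 0.33. The difference was 0.57 without CR replicate 4, 0.63 without AL replicate 1 and 0.16 without AL replicate 2 (0.20, 0.19 and 0.22 without CR replicate 1, CR replicate 2 or AL replicate 3), and none of these fits called it.

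The antiviral effectors gave 0 of 13 tested members past the test, with 9 positive and 4 negative differences and a median of 0.04. Lgals3bp, which encodes a secreted galectin-binding glycoprotein, was at 12.31, 12.39, 12.29 and 12.43 in the CR arrays, against 12.15, 12.03 and 12.12 in the AL arrays. All CR arrays lay above all AL arrays, which held for 1 of the 32 tested genes (3.12%) and for 7.14% of all genes. The change was 1.19-fold, a difference of 0.26 ± 0.07 (95% interval 0.10 to 0.41), and it did not pass over all genes (limma, adjusted p = 0.224). The opposite separation, with all CR arrays below all AL arrays, was seen in 0 of the 32 and in 3.03% of all genes.

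Ifit1, whose product binds viral RNA ends that lack the cap marks of host RNA, was at 7.41, 7.60, 7.01 and 7.46 in the CR arrays, against 7.22, 6.90 and 7.23 in the AL arrays. Only CR replicate 3 lay within the AL range, and the difference was 0.25 ± 0.15 (limma, adjusted p = 0.708), or 0.14 without AL replicate 2. Xaf1, a gene linked to cell death, was at 7.54, 7.63, 7.13 and 7.39 in the CR arrays and at 7.37, 7.91 and 7.74 in the AL arrays. The arrays of the diets were interleaved, with a difference of -0.25 ± 0.16 (-0.13 without AL replicate 2). The oligoadenylate synthetase family, whose active members switch on RNase L, showed no common direction. The differences were -0.13 ± 0.12 for Oas2, 0.09 ± 0.11 for Oas3, 0.15 ± 0.13 for Oasl1 (0.03 without AL replicate 3) and 0.00 ± 0.17 for Oasl2. The kinase PKR, encoded by Eif2ak2, had a difference of 0.04 ± 0.14. Bst2, which encodes the virion tether tetherin, had the smallest within-diet SD of the set, 0.05, and stood at 8.51 ± 0.05 in CR and 8.57 ± 0.05 in AL arrays. The other tested effectors Rsad2, Ifi35, Rtp4 and Trim30a lay between -0.15 and 0.13.

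Some of the best known interferon targets were dim, below the filter level. In a fit with no filter 0 of these 6 genes passed (limma, adjusted p between 0.613 and 0.977). Mx2, at -0.24 ± 0.10, was the 1 of them with an unadjusted p below 0.05. Mx1, a GTPase that blocks viruses, was at 5.22, 5.17, 5.18 and 5.17 in the CR arrays and 5.07, 5.21 and 5.35 in the AL arrays. Its relative Mx2 was at 5.46 ± 0.19 in CR and 5.69 ± 0.06 in AL arrays. Ifit2 was at 6.19 ± 0.10 against 5.97 ± 0.20 and Ifit3 at 6.34 ± 0.13 against 6.40 ± 0.32. The chemokine gene Cxcl10, which draws T cells, was at 6.47, 6.59, 6.49 and 6.67 in the CR arrays and 6.68, 6.50 and 6.44 in the AL arrays. Gbp3, a guanylate-binding protein that acts on intracellular pathogens, was at 6.59, 6.67, 6.50 and 6.63 in CR arrays and 6.63, 6.62 and 6.60 in AL arrays. Gbp3 was the gene just under the filter level and Rsad2 the one just over it, at means of 6.60 and 6.94 over all 7 arrays. No detection call was given, so it cannot be said whether these values exceed background.

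**Figure D2:**
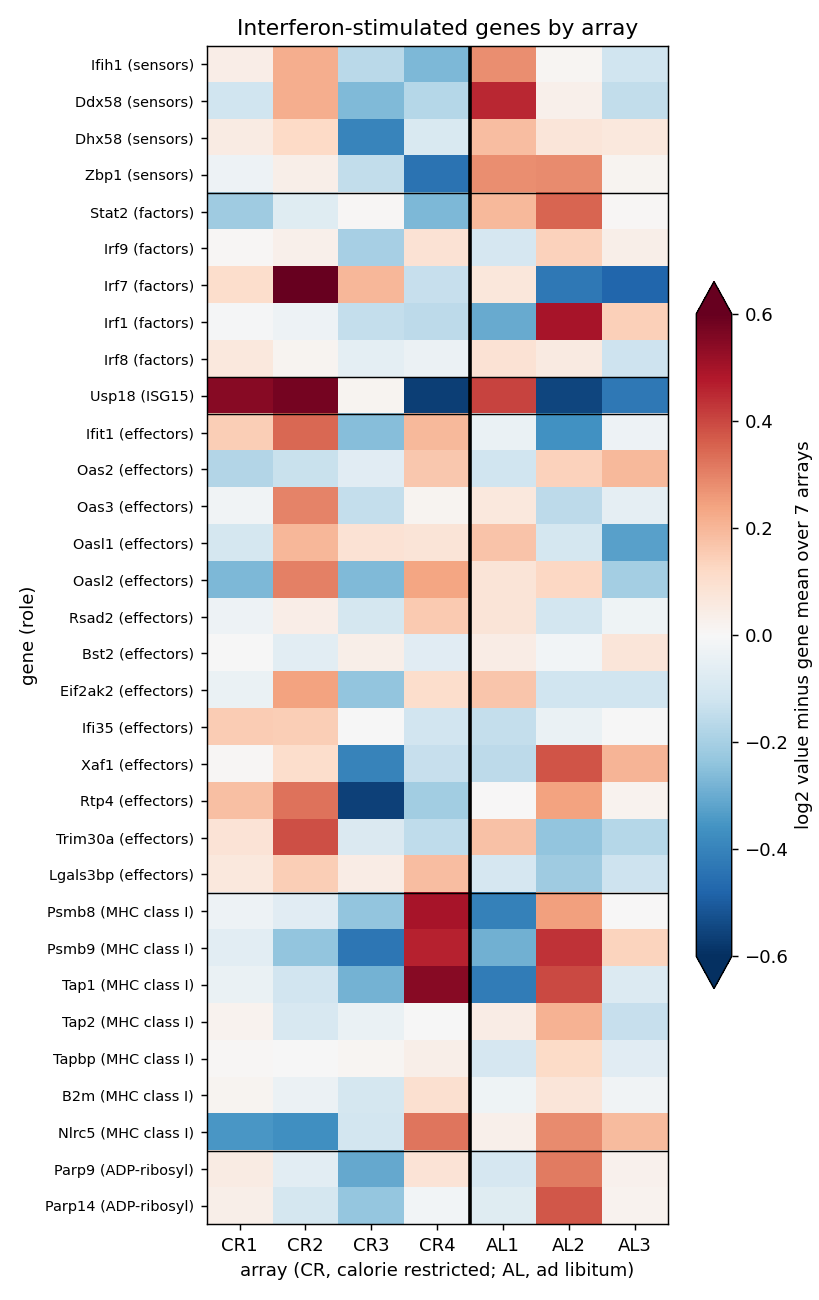
Each of the 32 tested genes (rows, with role) on each of the 7 arrays (columns, CR left and AL right), coloured by its log2 value minus its mean over all arrays, with the colour scale cut at 0.6 either way. CR replicate 2 holds the highest value of 7 of the 13 antiviral effectors (53.8%, against 13.8% of all genes). Psmb8, Psmb9, Tap1 and Nlrc5 are warm on CR replicate 4 and AL replicate 2.

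Antigen processing genes had 0 of 7 members past the test and a median difference of -0.02 (limma, adjusted p between 0.693 and 0.966). Their arrays differed within each diet instead. Psmb9, a catalytic subunit of the immunoproteasome, was at 9.42, 9.25, 9.05 and 9.95 in the CR arrays and at 9.20, 9.92 and 9.62 in the AL arrays. Tap1, a subunit of the peptide transporter and the neighbour that starts 225 bases away, was at 8.72, 8.64, 8.47 and 9.30 in the CR arrays and at 8.34, 9.15 and 8.68 in the AL arrays. The arrays took the same order in both genes within each diet. Psmb8, the next gene along and another immunoproteasome subunit, was at 8.53, 8.50, 8.33 and 9.06 in the CR arrays and at 8.16, 8.81 and 8.56 in the AL arrays, again in that order. The within-diet SD of Tap1 was 0.38, and the median of the 7 genes was 0.26, against 0.19 for the 32 genes and 0.15 over all genes.

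CR replicate 4 was the highest CR array for 6 of the 7 antigen processing genes, which held for 32.6% of all genes. AL replicate 2 was the highest AL array for 7 of the 7, which held for 26.8% of all genes. These arrays also had the highest median over all clusters in their diet (7.42 and 7.44), and its part in the pattern was not tested. Nlrc5, the transactivator of MHC class I genes, followed these arrays, at 9.17, 9.15, 9.41 and 9.84 in the CR arrays and 9.55, 9.80 and 9.71 in the AL arrays. CR replicate 4 lay above every AL array, and the difference of -0.29 ± 0.17 was -0.44 without it. Nlrc5 had 19 clusters with a single symbol, and 17 of them had negative differences, over a range of -0.29 to 0.07. The mean of all its clusters differed by -0.12. B2m, the invariant light chain of MHC class I, was at 13.27, 13.21, 13.15 and 13.34 in the CR arrays and 13.22, 13.32 and 13.23 in the AL arrays. It had the same highest array in each diet over a much narrower range. Tap2, the other part of the transporter, was at 8.48 ± 0.05 in CR and 8.54 ± 0.17 in AL arrays, and Tapbp, the loading chaperone tapasin, at 10.67 ± 0.02 and 10.64 ± 0.11.

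**Figure D3:**
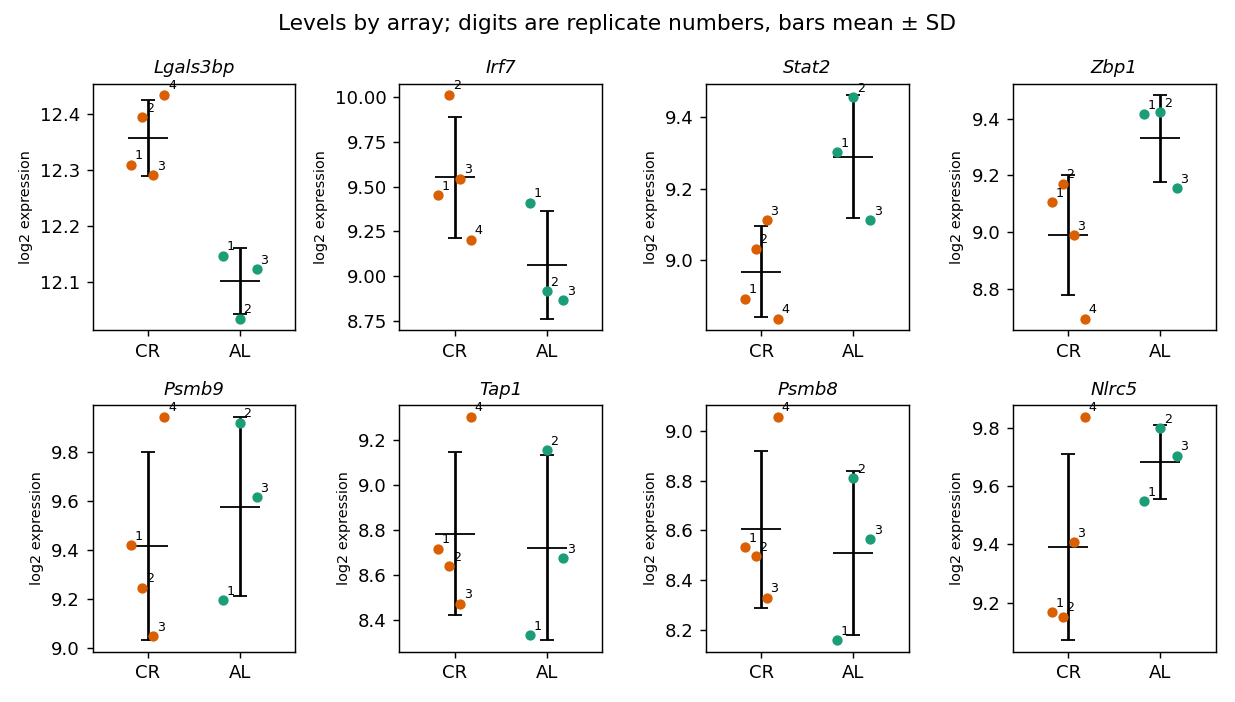
Log2 expression (vertical axes, each with its own range) of 8 genes in CR and AL arrays, with a point per array labelled by its replicate number and bars for the mean ± SD (n = 4 and 3). The diets separate only for Lgals3bp, and CR replicate 4 and AL replicate 2 are on top of their groups for Psmb9, Tap1, Psmb8 and Nlrc5.

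The ADP-ribosyltransferases Parp9 and Parp14, which modify signalling proteins of the interferon response, shared the high value on AL replicate 2. Parp14 was at 8.50, 8.36, 8.23 and 8.45 in the CR arrays, against 8.39, 8.84 and 8.48 in the AL arrays. Parp9 was at 8.83, 8.72, 8.48 and 8.87 in the CR arrays, against 8.68, 9.10 and 8.81 in the AL arrays. The diets overlapped in both genes, with differences of -0.19 ± 0.13 for Parp14 and -0.14 ± 0.14 for Parp9. Without AL replicate 2 these were -0.05 and -0.02.

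Markers of several cell types also differed between these arrays, not all in the same way. Among 23 tested enterocyte (absorptive cell) markers, all 23 had positive differences, with a median of 1.01, and 9 passed the test (0.656% of all genes passed in this direction). In 16 of the 23 the diets did not overlap. Over all genes this held with CR above for 7.14% and with CR below for 3.03%. The list mean was 11.67 to 11.91 in CR and 10.37 to 10.99 in AL arrays. Within the diets, CR replicate 4 was the lowest CR array for 14 of the 23 (60.9%, against 36.8% of all genes) and AL replicate 2 the lowest AL array for 22 (95.7%, against 24.7%). The Paneth markers were also lowest on CR replicate 4 among the CR arrays, for 13 of 14 (92.9%, against 36.8% of all genes). They were lowest of all 7 arrays there for 10 (71.4%, against 20.3% of all genes). On AL replicate 2 they were lowest among the AL arrays for 2 of 14 (14.3%, against 24.7%). Of the 15 measured markers of macrophages and dendritic cells, 5 reached the filter level and 0 passed the test. The mean over all 15, of which 10 lay below the filter level and Lyz2 was at 12.81, was 6.83 to 6.97 in CR and 6.91 to 6.98 in AL arrays. Cd68 and Cd14 had their highest CR value on CR replicate 4 (7.45 and 7.48) and their highest AL value on AL replicate 2 (7.62 and 7.75), the arrays where the antigen processing genes were high. The other 3 tested markers did not share both peaks. Itgam was highest on CR replicate 4 among the CR arrays (7.53) but on AL replicate 3 among the AL arrays (7.82). C1qa was highest on CR replicate 4 among the CR arrays (7.07) and lowest on AL replicate 2 among the AL arrays (6.90). Lyz2, whose probes may also bind the related Paneth gene Lyz1, was lowest in its diet on CR replicate 4 (12.68) and on AL replicate 2 (12.74). Csf1r, Adgre1 and Fcgr1 stayed below the filter level on every array. The part of macrophages, enterocytes and Paneth cells in the pattern was not tested. In sorted bulk samples, fewer cells of a type and less RNA per cell cannot be told apart.

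**Figure D4:**
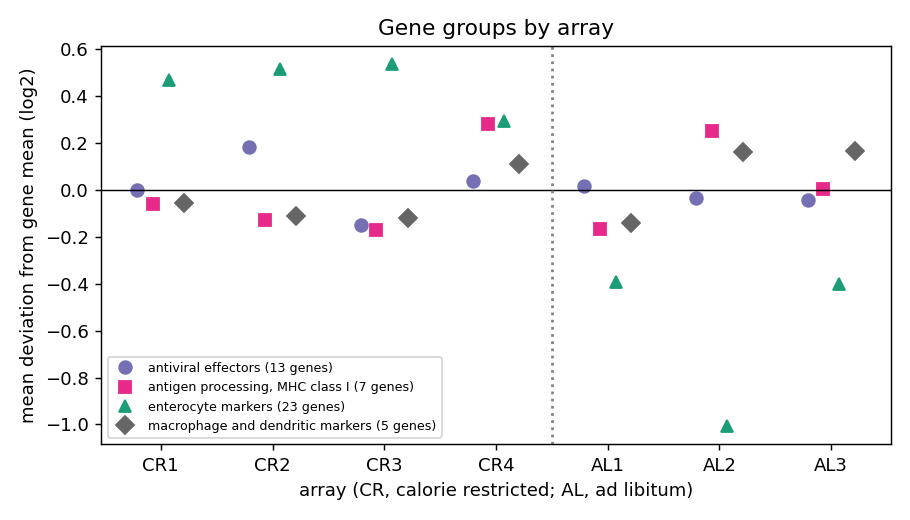
Mean deviation from each gene's own mean (log2, vertical axis) on each array (horizontal axis) for 13 antiviral effectors, 7 antigen processing genes, 23 enterocyte markers and 5 macrophage and dendritic cell markers. Antigen processing genes reach 0.28 on CR replicate 4 and 0.25 on AL replicate 2, where enterocyte markers are lowest within their diet.

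Most leucocyte markers were low, and 0 passed the test. Of the 15 measured pan-leucocyte and T cell markers 5 reached the filter level, and the list mean was 6.46 to 6.591 in CR and 6.428 to 6.605 in AL arrays. Of the 8 measured B and plasma cell markers 3 reached it, with list means of 6.44 to 6.49 and 6.41 to 6.61. Cd3d, Cd3g, Cd79a and Ms4a1 were below the filter level on all arrays. Cd3e, another T cell gene, was above it, at 7.40 to 7.67 in CR and 7.57 to 7.65 in AL arrays. Ptprc, the pan-leucocyte marker, had a mean above it, at 6.74 to 7.27 in CR and 6.94 to 7.05 in AL arrays. The diets did not overlap for 1 of the 5 tested, Cd8a, at 6.73 to 6.93 in CR and 6.97 to 7.20 in AL arrays (limma, adjusted p = 0.466). Over all genes the diets did not overlap with CR below for 3.03% and with CR above for 7.14%. Tnfrsf17, a plasma cell gene below the filter level, was at 6.23 to 6.34 in CR and 6.44 to 6.57 in AL arrays, again without overlap. Gzmb, a gene of the T cell list with a mean below the filter level, separated the other way. It was at 6.56 to 7.00 in CR and 6.10 to 6.47 in AL arrays. Of the 5 tested genes of that list, 4 had negative differences and 1, Cd7, a positive one (0.33 ± 0.15). The part of leucocytes in the values of the set was not tested. Paneth markers had 0 of 14 past the test, at list means of 13.07 to 13.32 in CR and 13.27 to 13.48 in AL arrays. Of the 14 differences 12 were negative. The diets did not overlap for 1, Mptx1, with a difference of -1.42 ± 0.44 and all CR arrays below all AL arrays (limma, adjusted p = 0.311). Other secretory markers had 0 of 13, at 11.07 to 11.62 in CR and 11.08 to 11.34 in AL arrays. The diets did not overlap for 2 of the 13. Zg16 was higher in CR, with a difference of 0.96 ± 0.35, and Muc2 lower, at -0.20 ± 0.06.

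Genes around the set in the interferon pathway gave a like result. Of 99 tested genes in 6 lists, 0 passed in either direction (limma, smallest adjusted p = 0.375), 9 had an unadjusted p below 0.05 (9.09%, against 9.3% of all genes), and the median difference was 0.03. The diets did not overlap for 6 of the 99. Over all genes this held with CR above for 7.14% and with CR below for 3.03%. Of the interferon genes themselves, 3 of 13 measured reached the filter level. Of these, Ifna5, whose family has near-identical copies, was at 7.87 ± 0.10 in CR and 8.08 ± 0.02 in AL arrays (limma, adjusted p = 0.498), with all CR arrays below all AL arrays. Ifnz was at 7.40 ± 0.23 and 7.50 ± 0.14.

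Receptors and their kinases had 9 of 10 differences above 0, with a median of 0.09 and 0 calls. Ifnlr1, the specific chain of the interferon lambda receptor, was at 8.08, 7.86, 7.91 and 7.77 in the CR arrays, against 7.69, 7.70 and 7.68 in the AL arrays. All CR arrays lay above all AL arrays, which were close together, and the difference was 0.21 ± 0.09 (limma, adjusted p = 0.536). Ifngr1, a chain of the interferon gamma receptor, had a difference of 0.18 ± 0.15. Upstream adaptors and kinases had 8 of 14 above 0 and 0 calls. The adaptor Myd88, shared by Toll-like receptors, was at 10.58 ± 0.09 in CR and 10.35 ± 0.10 in AL arrays, and Ticam1, which carries signals of the RNA receptor TLR3, at 9.69 ± 0.03 and 9.36 ± 0.32.

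Negative regulators had 10 of 15 differences above 0 and 0 calls. The feedback inhibitor Socs3 had a difference of 0.40 ± 0.20, and Rnaseh2b, a subunit of the nuclease that removes RNA from RNA-DNA hybrids, had 0.25 ± 0.10. Of the 45 other interferon-stimulated genes tested, 26 were above 0 and 0 passed. The ISG15-conjugating enzyme gene Ube2l6 was at 8.67, 8.86, 8.54 and 8.50 in the CR arrays, against 8.37, 8.30 and 8.32 in the AL arrays. Plscr1, a phospholipid scramblase, was at 11.59, 11.28, 11.45 and 11.21 in the CR arrays, against 11.12, 11.06 and 11.07 in the AL arrays. The diets did not overlap in either, and the differences of 0.31 ± 0.11 and 0.30 ± 0.10 did not pass (limma, adjusted p = 0.380 and 0.375). The last list held other MHC class I genes together with proteasome, peptidase and chaperone genes such as Psmb10, Erap1 and Calr. Of its 12 tested genes, 6 were above 0 and 0 passed. The tested MHC class I genes among them were H2-Q2, H2-Q4, H2-T10 and H2-M3. The classical genes H2-K1 and H2-D1 had no cluster with a single symbol and so no value, as had H2-Q1, H2-T3, H2-T22 and H2-T23. H2-Q2 and H2-M3, whose probes may bind related genes of the family, had differences of 0.25 ± 0.11 and -0.25 ± 0.12.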

How the data were processed

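Total RNA of sorted Paneth cells was hybridised to 7 arrays. The authors deposited log2 values. The submitters' processing notes name Expression Console from Affymetrix, and the log2 scale was inferred from the range (2.97 to 14.67). How it summarised and normalized the probes, and its version, is not given in these sources. Array medians were 7.26, 7.24, 7.27 and 7.42 in CR replicates 1 to 4 and 7.29, 7.44 and 7.42 in AL replicates 1 to 3. CR replicate 4 and AL replicate 2 thus had the highest median of their diet. Of the pairs of arrays, 0 were identical.

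Platform annotation gave a single symbol for 21789 of 35556 clusters, several for 1621 and none for 12146. The brightest single-symbol cluster was kept per gene. Genes with a mean at or above the 40th percentile were compared by limma (version 3.58.1, R version 4.3.3) with lmFit, eBayes with an intensity trend and Benjamini-Hochberg adjustment over all genes, called at adjusted p below 0.05. The fit was tested on simulated data with added shifts larger than any difference in the set. That test does not show its power for differences as small as those found. The number of arrays limits the precision. Figures used matplotlib (version 3.10.9).

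Every gene of the set is accounted for. Per-array values are given for the 10 with the smallest unadjusted p and, in each role group, those with the smallest p and the highest mean. The antigen processing neighbours Psmb8, Psmb9 and Tap1 were added after seeing their values, as were Mx1 and the leucocyte and macrophage markers named. Of each pathway list the genes with the smallest p are named. Genes and lists were chosen with earlier results of these data known. Alternatives were other normalizations, filters, cluster rules, variance models, a replicate block and leaving out each array.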

Additional observations from a re-analysis of the deposited data

How the results depend on the processing

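No alternative called any gene of the set in either direction. These were quantile normalization, median centring, averaging all clusters of a gene, no filter, a stricter filter (60th percentile), no trend, an ordinary linear model, a replicate block and the 7 fits without 1 array. The smallest adjusted p in any of them was 0.185. The median difference of -0.03 stayed within 0.10, the spread between arrays, and ran from -0.07 to 0.06. It was above 0 after median centring and without CR replicate 3 (0.01) or AL replicate 2 (0.01). Leaving out 1 array moved 28 of the 32 differences by over 1.5 times, 14 of them without a change of sign. Of 472 single-gene values, 434 kept their direction and 38 changed sign, none of them called. After quantile normalization these were Oasl2 (-0.0057) and Tapbp (-0.0123), and after median centring B2m (0.0712), Bst2 (0.0297), Irf8 (0.0785), Irf9 (0.0429) and Tap2 (0.0200). With the replicate block they were Irf8 (0.0024), Oasl2 (-0.0759), Psmb8 (-0.0578), Rsad2 (-0.0144) and Tap1 (-0.1104). In the fits without 1 array the ranges were -0.0494 to 0.0170 for B2m, -0.0318 to 0.1381 for Eif2ak2, -0.186 to 0.0121 for Ifih1, -0.0738 to 0.0324 for Irf8, -0.1058 to 0.0162 for Irf9, -0.0006 to 0.1464 for Oas3 and -0.0990 to 0.0931 for Oasl2. They were -0.0831 to 0.2427 for Psmb8, -0.3534 to 0.0090 for Psmb9, -0.0144 to 0.0816 for Rsad2, -0.283 to 0.0117 for Rtp4, -0.1305 to 0.2778 for Tap1, -0.1559 to 0.0182 for Tap2 and -0.0108 to 0.0954 for Tapbp. The cause of these sign changes was not tested. Same-numbered arrays did not deviate together (correlations of -0.126, -0.265 and -0.550 across genes), so the numbers were not taken to pair them. The replicate block leaves CR replicate 4, which has no partner, without weight, and gave a median of -0.07 and 0 calls over all genes. Over all genes the main fit called 88 higher and 1 lower, the ordinary linear model 0 and 0, quantile normalization 53 and 0, and the fits without 1 array from 12 to 97 higher and 0 to 9 lower. Without detection calls, signal over background is unknown for the 6 dim genes.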

Other observations

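The 45 other interferon-stimulated genes tested, which do not include the set, varied between arrays within a diet. CR replicate 2 was the highest CR array for 23 of the 45 (51.1%), against 25.2% of all genes, and CR replicate 3 the lowest for 25 (55.6%), against 27% of all genes. Among the 13 antiviral effectors of the set the same arrays were highest for 8 and lowest for 7. The high CR replicate 2 was not particular to interferon genes. It was the highest CR array for 8 of 14 Paneth markers (57.1%) and 9 of 13 other secretory markers (69.2%), but for 5 of 23 enterocyte markers (21.7%). Among the AL arrays, replicate 1 was highest for 21 of the 45 (46.7%), against 47.7% of all genes.

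Of the 23 tested genes of the set with a promoter window, the 10 that held the response element motif had a median difference of 0.01 (range -0.32 to 0.25). The 13 without it had a median of 0.03 (range -0.25 to 0.49).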
